A study of Mus musculus with 6 samples.

Results

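A set of 10 transcription factor genes of vessel cells was followed in purified bone endothelial cells (BECs) of young adult mice: the SoxF genes Sox7, Sox17 and Sox18, the ETS genes Erg, Fli1 and Ets1, the Krüppel-like genes Klf2 and Klf4, the helix-loop-helix gene Tal1 and the MADS-box gene Mef2c. They were taken by name from the gene count table, with earlier results of these data known, and make up 10 of its 37991 genes. All 10 passed the filter on low counts that left 19480 genes in the test. The study asked how the vessels of bone differ between the sexes. RNA was measured in 6 libraries of BECs from c57/Bl6 mice aged 12 weeks, 3 female and 3 male, with no treatment or engineered allele named in the labels. The cells were fresh from the tibia according to the labels, or from tibia and femur according to the study's methods, and were purified by endomucin, a surface sialomucin of capillary and venous endothelium. The samples used for libraries were those with the best RNA quality, according to the study's methods. The labels do not say whether each library came from 1 mouse, so p-values measure the spread between these samples only.

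These factors bind DNA at enhancers and promoters of vessel genes. SoxF proteins act in arterial, venous and lymphatic specification, and ETS proteins occupy a large share of endothelial enhancers, among them those of the VE-cadherin gene Cdh5. KLF2 and KLF4 are induced by laminar flow, partly through MEF2 proteins, and switch on Nos3 and Thbd. Many of the 10 are not private to endothelium: Fli1, Ets1, Klf2, Klf4 and Mef2c are also used by lymphoid or myeloid cells, and TAL1 works with GATA and LMO2 proteins in erythroid cells, megakaryocytes and stem cells as well as in vessels.

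3 sets of sequences go with the results. The first is the primer pair of the study's own assay for Sox18, the factor with the largest fitted difference between the sexes here. In the study that assay compared BECs of mice given vehicle with those of mice given oestradiol. By exact match to GENCODE M39 (GRCm39), both primers lie in the coding part of exon 2 of 2 of the single annotated transcript, on the minus strand, the forward one at chr2:181312295-181312314 (transcript bases 940 to 959) and the reverse one at chr2:181312222-181312240 (bases 1014 to 1032), and they bound a product of 93 bases.
Sox18 forward primer: CGCAGGTCTCTACTATGGCA
Sox18 reverse primer: TCTGTGCCCTCAAGAGACG
The second is the promoter of Klf2, shown because it holds a MEF2-type motif and both Klf2 and Mef2c are in the set. It is RefSeq's sequence on GRCm38.p6, plus strand, chr8:72318812-72319111, from 250 bases before to 50 after the gene start. Capitals mark a match to CTANNNNTAG, whose first base lies at -118 from the gene start.
Klf2 promoter: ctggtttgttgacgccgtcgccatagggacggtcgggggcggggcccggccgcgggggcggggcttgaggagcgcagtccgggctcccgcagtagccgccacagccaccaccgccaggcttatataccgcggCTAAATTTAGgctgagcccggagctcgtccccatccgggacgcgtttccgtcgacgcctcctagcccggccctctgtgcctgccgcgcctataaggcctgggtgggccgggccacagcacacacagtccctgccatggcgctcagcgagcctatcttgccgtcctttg
The third is a promoter of Tal1, shown because the ratio of Tal1 to the erythroid markers was the steadiest of its ratios to 9 marker lists. It lies at chr4:115056176-115056475 on the same build and strand, and capitals mark TTATCT, the reverse complement of the GATA motif AGATAA, with its first base at -205.
Tal1 promoter: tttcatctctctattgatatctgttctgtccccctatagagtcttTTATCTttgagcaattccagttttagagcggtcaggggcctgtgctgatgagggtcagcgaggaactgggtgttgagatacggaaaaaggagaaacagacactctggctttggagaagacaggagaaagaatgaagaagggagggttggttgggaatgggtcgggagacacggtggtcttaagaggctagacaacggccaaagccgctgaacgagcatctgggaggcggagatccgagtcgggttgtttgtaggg
RefSeq promoters were at hand for 5 of the 10 genes (3 for Erg, 1 for Klf2, 1 for Klf4, 2 for Tal1 and 3 for Mef2c). Each motif was searched on both strands, and the matches shown do not overlap a match to another motif. CTANNNNTAG was in 1 of these 10 promoters and in 3.69% of all 32851 promoters of the same length. AGATAA was in 2 of the 10 (Tal1 and Erg) and in 11.2% of all promoters. The ETS core CCGGAA was in 0 of the 10 and in 14.9% of all, the SOX motif ACAAT in 2 (Mef2c and Erg) and in 31.0%, and the KLF motif CACCC in 6 (of Tal1, Klf2, Mef2c and Erg) and in 57.5%. These matches are descriptions of letters in a window and were not linked to expression.

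Total counts lay between 47678806 and 58325745 per library. Levels are given as CPM, counts scaled to library size with edgeR's TMM factors, and 3 counts, taken as the lowest level a library can show, equal 0.0477 to 0.0639 CPM. All 22 endothelial marker genes were detected in every library, with the labelled cell type's sum at 450.5 to 658.2 CPM in females and 276.9 to 415.9 CPM in males. On average they held 0.0469% of all counts, against 3.04% for 14 neutrophil genes, 1.85% for 11 erythroid genes, 0.437% for 10 macrophage and monocyte genes and 0.324% for 9 B cell genes. Emcn, which encodes the endomucin used for the purification, stood at 8.68, 5.35 and 10.5 CPM in females and 4.21, 3.09 and 6.73 CPM in males. The endothelial and macrophage sums were lower in every male library than in any female one, and the neutrophil and erythroid sums were higher. Gene by gene, 5 of 22 endothelial, 7 of 10 macrophage, 11 of 14 neutrophil and 4 of 11 erythroid genes were apart in that direction, against 7.29% of all genes lower and 7.24% higher in males. The 4 erythroid genes were the globins, and 1 macrophage and monocyte gene was apart the other way. Fitted values went against the sum of their list for 2 macrophage and monocyte, 1 neutrophil and 3 erythroid genes. The sums give most weight to genes with high counts, such as the globins and Stab2, and as a mean of log2 CPM the endothelial and erythroid lists overlapped between the sexes. The sums of T and NK cell, megakaryocyte, stem and progenitor, stromal and B cell markers overlapped between the sexes. The RNA therefore holds many blood cell transcripts, and in such bulk samples fewer endothelial cells cannot be told apart from less RNA per cell.

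Between the sexes, the SoxF genes had lower mean levels in males and the other 7 factors differed little. None of the 10 passed edgeR's quasi-likelihood test at a Benjamini-Hochberg adjusted p under 0.05 (0 of 10), beside 8 of 19480 genes, or 0.0411%, over the whole table. At an unadjusted p under 0.05 there was 1 of 10, Sox18, against 9.79% of all genes tested. The fitted log2 fold change, male over female, was below 0 for 8 of the 10 and for 50.2% of all genes, with a median of -0.10 for the factors and -0.00125 for all genes. Male and female libraries were apart, with no overlap, for 1 of the 10, Sox17, against 14.5% of all genes in either direction and 7.29% lower in males. DESeq2's Wald test called 1 of the 10, again Sox18, and 354 genes in all, 2.02% of the 17561 to which it gave an adjusted p.

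**Figure D1:**
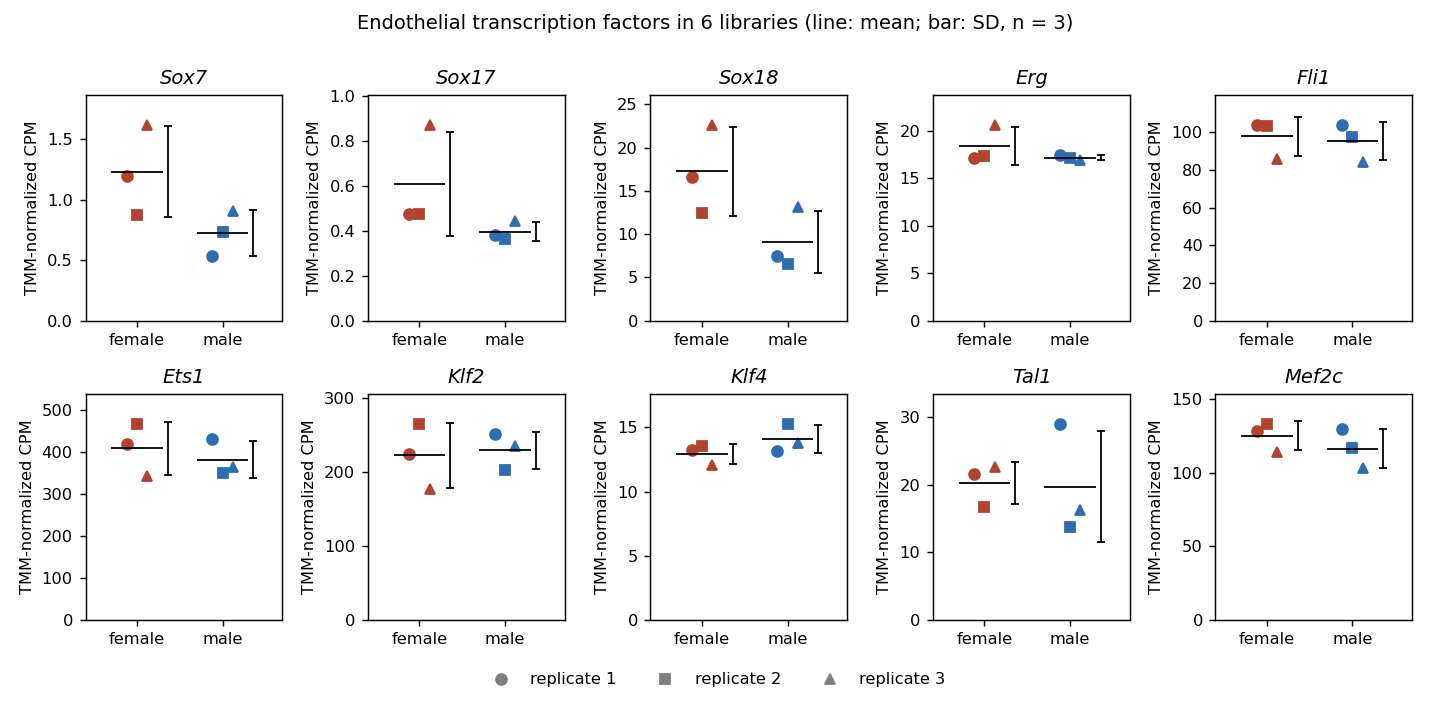
Level of each of the 10 transcription factors in TMM-normalized CPM (vertical axis, linear, from 0) in 3 female and 3 male libraries, with symbols for the replicate, a line for the mean and a bar for the SD (n = 3). Sox7, Sox17 and Sox18 have lower means in males, while the points of the other 7 factors intermingle.

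Sox18 encodes a SoxF factor of vascular and lymphatic development and lies at chr2:181311629-181313438 on the minus strand. It was measured at 16.6, 12.5 and 22.7 CPM in female replicates 1, 2 and 3, and at 7.48, 6.58 and 13.2 CPM in male replicates 1, 2 and 3. Male replicate 3 stood above female replicate 2, so the groups overlapped by that pair of libraries. The mean was 17.3 ± 5.13 CPM in females and 9.07 ± 3.57 CPM in males (SD, n = 3 each), a log2 fold change of -0.93 (SE 0.29; edgeR adjusted p = 0.326). The call was not the same in DESeq2's Wald test, which gave -0.92 with an adjusted p of 0.0492. The fold change stayed below 0 when any library was left out, from -1.30 without male replicate 3 to -0.68 without female replicate 3. Counts were 324 to 1064 per library, and the 95% counting interval was 5.88 to 7.33 CPM for the lowest library and 21.3 to 24.1 CPM for the highest.

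Sox7, a SoxF gene of early endothelial and blood development (chr14:64181006-64188352, plus strand), was measured on 28 to 76 counts per library. Its female libraries held 1.19, 0.870 and 1.62 CPM and its male libraries 0.532, 0.731 and 0.907 CPM. Here, too, female replicate 3 was the highest library and male replicate 3 lay just above female replicate 2. The log2 fold change was -0.76 (SE 0.41; edgeR adjusted p = 0.584), from means of 1.23 ± 0.376 and 0.723 ± 0.188 CPM (SD, n = 3 each), and it stayed between -0.96 and -0.52 with each library left out.

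Sox17, a SoxF gene of arterial specification (chr1:4561151-4567784, minus strand), had the fewest counts of the 10, 18 to 41 per library. Female libraries held 0.477, 0.473 and 0.873 CPM, and male libraries 0.380, 0.365 and 0.443 CPM. Every male library was thus below every female one, yet female replicate 2 and male replicate 3 were only 4 counts apart (25 and 21 counts), and their 95% counting intervals, 0.306 to 0.698 and 0.274 to 0.677 CPM, overlapped. The log2 fold change of -0.61 (SE 0.49; edgeR adjusted p = 0.736) rested largely on female replicate 3, without which it was -0.26. At this depth a difference in Sox17 was not detectable beyond the spread. The antisense lncRNAs Gm37587 and Gm74574 overlap exon bases of Sox17 (1011 bases) and Sox18 (420 bases) in GENCODE M39 and had no row in the count table, so reads from them, if strand was not used in counting, cannot be told apart from those genes. The same holds for Gm69055 over Fli1 (123 bases) and Gm33786 over Tal1 (250 bases).

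The ETS genes were far more even. Erg, which maintains endothelial identity and barrier genes (chr16:95160028-95387452, minus strand), was at 17.1, 17.4 and 20.7 CPM in females and 17.5, 17.2 and 17.0 CPM in males. Apart from female replicate 3 the libraries lay within 1 CPM of each other, and the highest was 1.22 times the lowest. The log2 fold change was -0.10 (SE 0.14; edgeR adjusted p = 0.865), and -0.0037 without female replicate 3.

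Fli1, an ETS factor of endothelium, megakaryocytes and other blood cells (chr9:32333500-32454157, minus strand), was at 104.2, 103.3 and 86.0 CPM in females and 104.1, 97.5 and 84.5 CPM in males. Replicate 3 was the lowest of each sex, and the order of the libraries alternated between the sexes throughout. Its log2 fold change of -0.04 (SE 0.13; edgeR adjusted p = 0.952) changed sign when some libraries were left out. Ets1, a factor of angiogenic endothelium and of lymphocytes (chr9:32547517-32669116, plus strand), was at 419.3, 468.4 and 342.8 CPM in females and 432, 349.7 and 364.4 CPM in males. The highest and the lowest library were both female. The log2 fold change was -0.10 (SE 0.15; edgeR adjusted p = 0.868).

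Klf2, the flow-induced factor that keeps endothelium quiescent and also marks resting T cells (chr8:73072726-73075502, plus strand), was at 224.8, 265.3 and 177.2 CPM in females and 250.7, 202 and 234.5 CPM in males. Female libraries again held both ends of the range, and the log2 fold change was 0.04 (SE 0.16; edgeR adjusted p = 0.958), below 0 when female replicate 3 or male replicate 1 was left out. Klf4, its flow-responsive relative, which also acts in monocytes (chr4:55527139-55532528, minus strand), was at 13.3, 13.6 and 12.1 CPM in females and 13.2, 15.3 and 13.8 CPM in males. It had the highest fitted value of the 10, a log2 fold change of 0.12 (SE 0.15; edgeR adjusted p = 0.829), with overlapping groups.

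Tal1, the helix-loop-helix factor required for the formation of blood (chr4:114913623-114928952, plus strand), had similar means, 20.3 ± 3.17 CPM in females and 19.7 ± 8.22 CPM in males (SD, n = 3 each), but the widest spread outside the SoxF genes. Female libraries held 21.5, 16.7 and 22.6 CPM, and male libraries 29.1, 13.7 and 16.3 CPM. The highest and the lowest library were both male and differed 2.12 times. The log2 fold change was -0.04 (SE 0.26; edgeR adjusted p = 0.976), which ranged from -0.44 without male replicate 1 to 0.16 without male replicate 2. Mef2c, a MADS-box factor of cardiovascular development and of B and myeloid cells (chr13:83652064-83815555, plus strand), was at 128.1, 133.4 and 114.4 CPM in females and 129.5, 117 and 102.9 CPM in males. Its groups overlapped, with a log2 fold change of -0.11 (SE 0.13; edgeR adjusted p = 0.824).

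**Figure D2:**
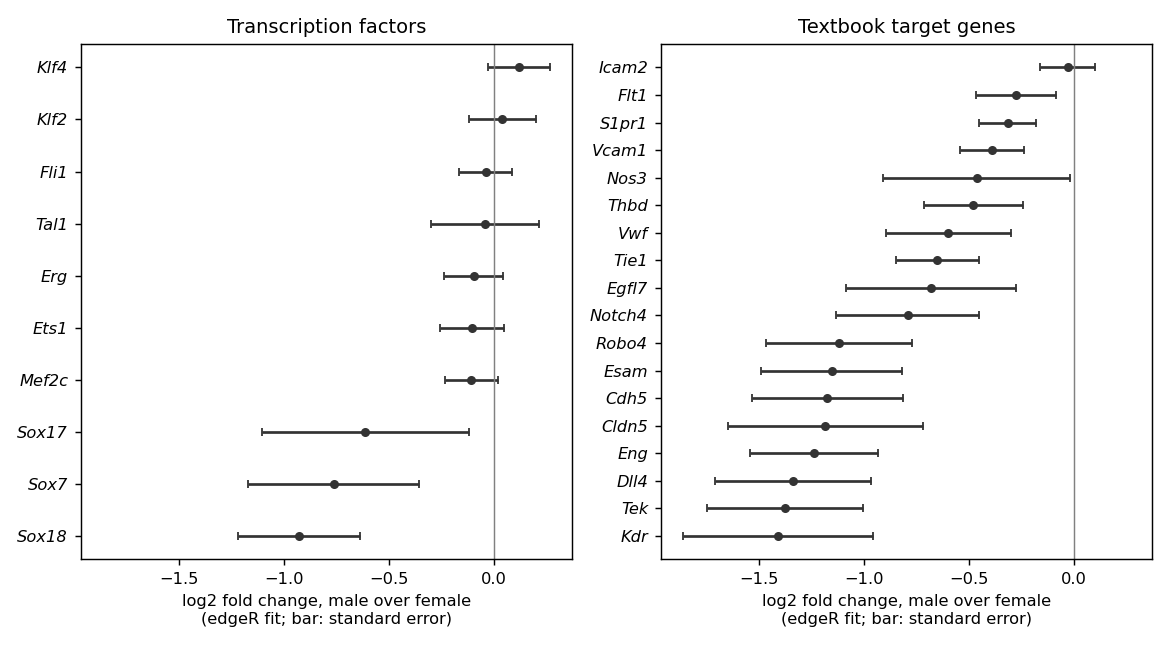
Log2 fold change, male over female, from edgeR (horizontal axis) with its standard error, for the 10 transcription factors and for 18 textbook target genes of these factors, n = 3 libraries per sex. The SoxF genes lie at -0.61 to -0.93 and the other factors between -0.11 and 0.12, while all 18 targets lie below 0.

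The target genes, chosen as textbook targets of SoxF, ETS, KLF or MEF2 factors, had lower fitted values in males as a list. Of 19 listed, 18 were tested, and 18 of 18 had a fitted log2 fold change below 0, with a median of -0.73 against -0.00125 for all genes. edgeR called 0 of 18. It placed 12 of 18 lower in males at an unadjusted p under 0.05, against 4.76% of all genes, and the libraries did not overlap for 6 of 18, against 7.29%. DESeq2's Wald test called 6 of the list, Eng and Tek among them, against 2.02% of all genes. Eng, the TGF-beta co-receptor endoglin, was at 53.3, 31.0 and 53.7 CPM in females and 20.8, 11.7 and 26.1 CPM in males, with no overlap and a log2 fold change of -1.24 (SE 0.30; edgeR adjusted p = 0.230). Tek, the angiopoietin receptor, had -1.37 (SE 0.37; edgeR adjusted p = 0.253), from 9.38 ± 3.59 to 3.62 ± 1.47 CPM, again without overlap. The genes with the highest CPM in the list differed less. Vcam1, a leukocyte adhesion molecule also abundant in marrow macrophages, had -0.39 (SE 0.15; edgeR adjusted p = 0.441), and S1pr1, a sphingosine-1-phosphate receptor of endothelium and lymphocytes and a KLF2 target, had -0.31 (SE 0.14; edgeR adjusted p = 0.489), each lower in every male library. Of the 19 targets, 12 are also among the 22 endothelial markers. All 22 markers had a fitted value below 0, against 50.2% of all genes, with a median of -1.11, and edgeR called 0 of 22. Their summed level, which gives most weight to genes with high counts, differed by -0.73 on the log2 scale. The fitted values of the targets ran from -1.41 for Kdr to -0.03 for Icam2, with the SoxF genes at -0.93 to -0.61 inside that range and the other 7 factors at -0.11 to 0.12.

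The level of each factor was set against the summed endothelial markers of the same library, as a log2 ratio. With 3 libraries against 3, an exact two-sided permutation test cannot go below p = 0.10, so none of these 10 comparisons could pass 0.05. A gene with equal CPM in both sexes would stand 0.73 higher in males on this scale. Sox18 was 2.90% of the summed markers in females and 2.49% in males (difference -0.22, exact p = 0.4), a sign that turned with Cdh5 alone as the reference (0.25) or with 5 markers shared with blood cells left out (0.12). Sox7 was 0.206% and 0.203% (difference -0.02, exact p = 1), and Sox17 0.101% and 0.113% (0.17, exact p = 0.8). For these 3 genes the sexes overlapped, and the sign of the Sox7 difference also turned with the reference. For the other 7 the difference was 0.62 to 0.85, close to the 0.73 of a level gene. Erg (0.64), Klf4 (0.85) and Tal1 (0.62) did not overlap between the sexes, each at the smallest possible exact p of 0.10, but they overlapped with an exact p of 0.2 against each of the 3 other references (differences of 0.83 to 1.32). With the summed markers as the reference, Fli1 (0.69), Ets1 (0.63), Klf2 (0.79) and Mef2c (0.62) overlapped in at least 1 pair of libraries, each with an exact p of 0.2.

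The libraries also differ within each sex, which shows which factors rose and dipped with which cell markers. For each factor the log2 ratio to the mean log2 CPM of a marker list was taken in every library, and its SD over the 6 libraries was compared with the SD of the factor's own log2 CPM. This is a description over 6 libraries that share their composition, with no test. Sox18 had an SD of 0.678 alone and 0.22 against the endothelial list, the smallest of the 9 lists, and the endothelial list was also the steadiest when the difference between the sexes was taken out (0.246 within the sexes, against 0.484 alone). Its female replicates 1 and 3 were high and male replicates 1 and 2 low, as in the endothelial list. Sox7 was also steadiest against the endothelial list (0.381, against 0.557 alone), but within the sexes that list gave 0.41 against 0.419 alone and was the third of 9. The neutrophil (0.356) and stromal (0.361) lists came before the endothelial list there. Sox17, with its few counts, had 0.452 against the endothelial list and 0.454 alone, and was steadiest against the stromal (0.36) and macrophage (0.363) lists. Within the sexes its SD was smallest against the neutrophil list (0.32, against 0.373 alone) and was 0.449 against the endothelial list.

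**Figure D3:**
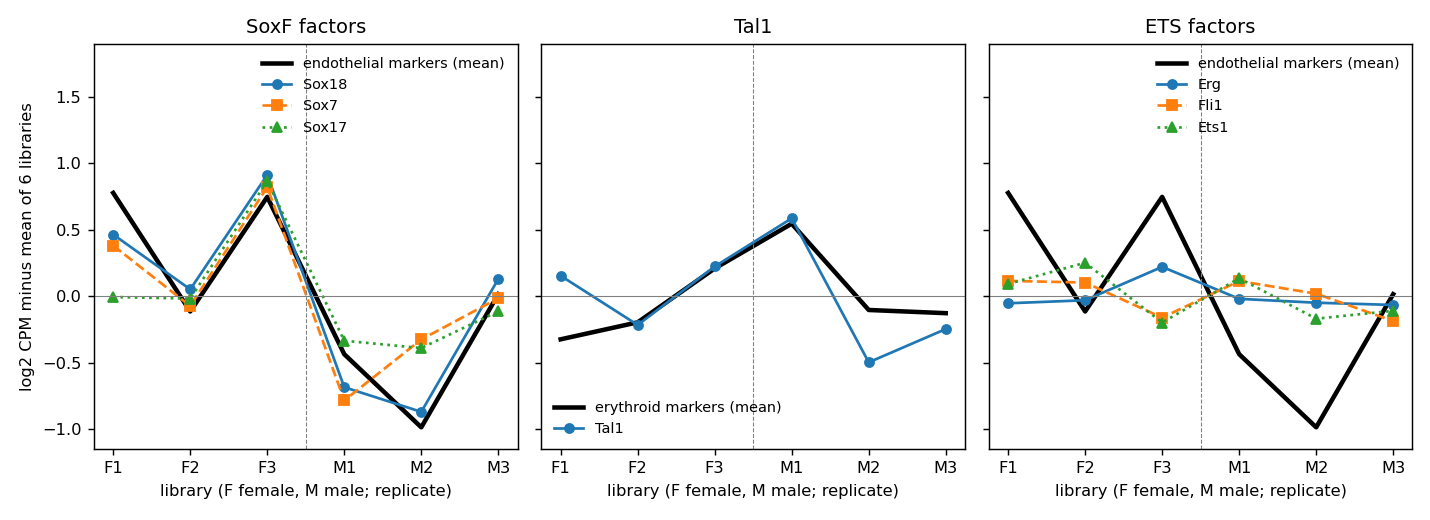
Log2 CPM of SoxF factors, Tal1 and ETS factors in each library minus the gene's mean over the 6 libraries (vertical axis), beside the mean of the endothelial or erythroid marker genes treated in the same way. Lines join libraries only for reading. Sox18 follows the endothelial list, with an SD of their ratio of 0.22, Tal1 is highest with the erythroid list in male replicate 1, and the ETS factors stay near 0.

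Tal1 was steadiest against another list. Its SD of 0.394 alone dropped to 0.284 against the 11 erythroid genes, the smallest of the 9 lists, and to 0.251 from 0.435 within the sexes. The stromal list (0.307) and the B cell list (0.317) came close behind. Male replicate 1, the highest for Tal1, also had the highest erythroid sum, 27284 CPM against 12269 to 19465 CPM in the other libraries. Female replicate 1 departed from that order, with the lowest erythroid sum and the third highest Tal1. The part of erythroid RNA in the Tal1 values was not tested.

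For the other 6 factors no list gave a smaller SD over the 6 libraries than the factor's own log2 CPM, which was 0.109 for Erg, 0.111 for Klf4, 0.14 for Fli1, 0.141 for Mef2c, 0.185 for Ets1 and 0.213 for Klf2. The nearest lists were B cell genes for Fli1 (0.156), Mef2c (0.18) and Ets1 (0.221), T and NK cell genes for Klf4 (0.141) and Klf2 (0.235), and macrophage genes for Erg (0.192). Within the sexes, macrophage genes were nearest to Klf2 (0.219, against 0.236 alone) and B cell genes to Fli1 (0.152, against 0.155 alone). Against the endothelial list the SD of these 6 was 0.638 to 0.777, the eighth of 9 for each. For factors this even, the SD of the ratio mostly reflects how much the list itself varied. Around its mean over the libraries, the endothelial list ran from -0.99 to 0.78 in log2 CPM, and the T and NK cell list from -0.19 to 0.22. The order of the lists therefore does not show which cells expressed these 6 factors. For Erg the spread was thus necessarily wider against the endothelial markers (0.638) than alone (0.109), which does not show whether its RNA came from endothelium.

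**Figure D4:**
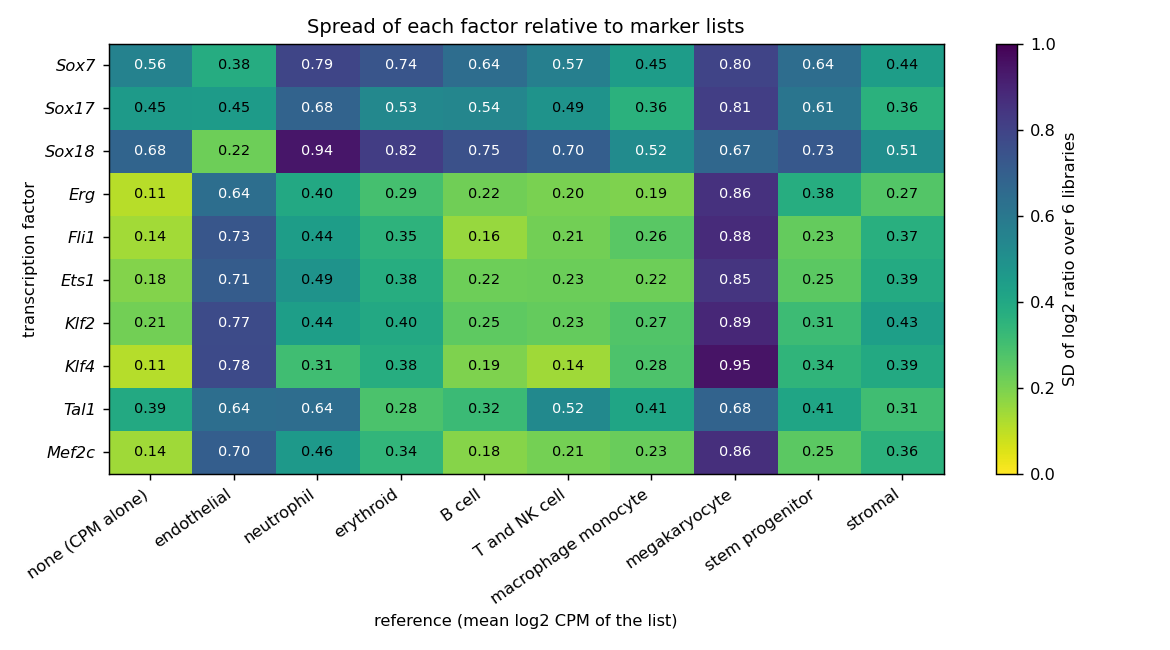
SD over 6 libraries of the log2 ratio of each transcription factor (rows) to the mean log2 CPM of each of 9 marker lists (columns), with the SD of the factor's own log2 CPM in the first column. A value below that of the first column means that the ratio was steadier than the factor alone. Sox18 is lowest against endothelial markers and Tal1 against erythroid markers, while 6 factors are steadiest in CPM alone.

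Levels of different genes were compared per kilobase of annotated exon. Klf2 was the most abundant factor, with a median over the 6 libraries of 107.5 CPM per kb, followed by Ets1 at 46.2 and Fli1 at 22.9 CPM per kb, and the ranges of these 3 did not overlap each other. Sox18 (7.88 CPM per kb) and Mef2c (7.15 CPM per kb) came next and were not distinguishable, Sox18 being above Mef2c in 3 of 6 libraries. Erg followed at 4.97 CPM per kb, above Sox18 in male replicates 1 and 2 and below it in the other 4 libraries, and above Klf4 (4.25 CPM per kb) in every library, and Klf4 and Tal1 (3.73 CPM per kb) overlapped. Sox7 (0.239 CPM per kb) and Sox17 (0.0859 CPM per kb) were far below the rest, with overlapping ranges although Sox7 was above Sox17 in 6 of 6 libraries. With the longest coding transcript as the length, Mef2c (17.1 CPM per kb) moved above Sox18 and the ranges of Klf2 and Ets1 overlapped. The choice matters most for Mef2c, whose annotated exons add up to 17132 bases and whose longest coding transcript has 7167.

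**Figure D5:**
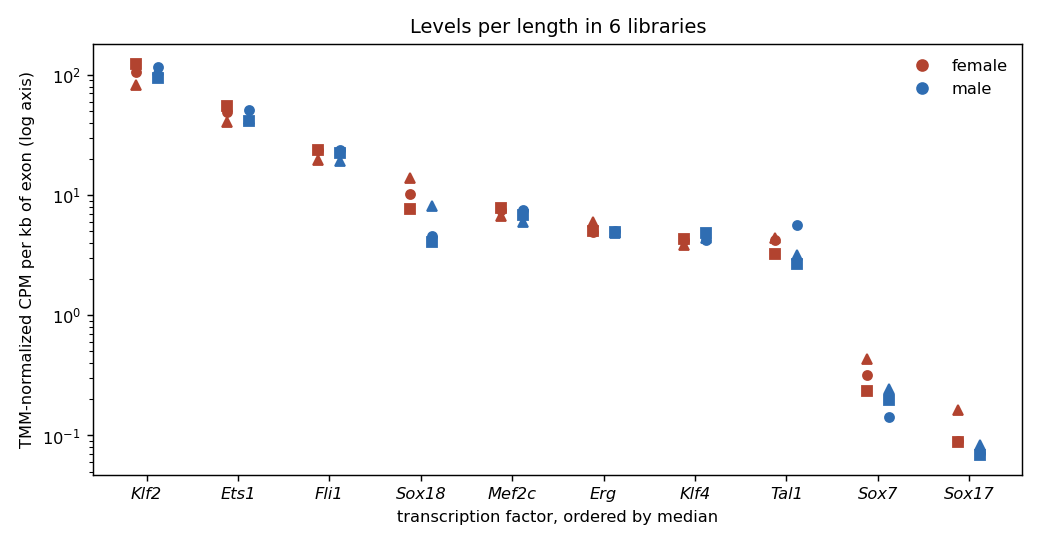
Level of each factor per kilobase of annotated exon in CPM per kb (vertical axis, logarithmic) in 3 female and 3 male libraries, with circles, squares and triangles for replicates 1, 2 and 3, ordered by the median over the 6 libraries. Klf2 is highest at a median of 107.5 CPM per kb, and Sox7 and Sox17 lie below 1 CPM per kb.

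The relatives of the 10 factors were read from wider family lists, and edgeR called 0 genes at an adjusted p under 0.05 in each of them. Of 20 other ETS genes tested, 2 were lower and 1 higher in males at an unadjusted p under 0.05 (9.79% of all genes in either direction, 4.76% lower), with a median log2 fold change of 0.01. Spi1, the myeloid and B cell factor PU.1, was at 203.2, 267.4 and 211 CPM in females and 263.8, 307.6 and 303.4 CPM in males (log2 fold change 0.36, SE 0.14; edgeR adjusted p = 0.441), with overlapping groups. Spib, a B cell factor, overlapped between the sexes (0.07, SE 0.17; edgeR adjusted p = 0.927), and Etv5 was lower in every male library (-0.34, SE 0.14; edgeR adjusted p = 0.467). Of 7 other SOX genes tested, none reached an unadjusted p of 0.05 in either direction, with a median of 0.00. Sox4, a factor of lymphoid and other progenitors, had the highest CPM of the list (87.6 ± 22.7 in females and 88.0 ± 9.45 in males, SD, n = 3 each), and Sox6, an erythroid factor, had the highest library in male replicate 1 (13.2 CPM), where Tal1 was highest. Sox5 (0.38, SE 0.34; edgeR adjusted p = 0.763) and Sox12 (-0.29, SE 0.29; edgeR adjusted p = 0.787) overlapped too, and with 1 library left out they ranged from 0.22 to 0.58 and from -0.70 to -0.088.

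Of 13 other KLF genes tested, 2 were higher in males at an unadjusted p under 0.05, against 5.03% of all genes, with a median of 0.07. Klf6 was at 113.8 to 131.4 CPM in females and 146.5 to 162.9 CPM in males, without overlap (log2 fold change 0.35, SE 0.11; edgeR adjusted p = 0.336). Klf11 had 0.72 (SE 0.22; edgeR adjusted p = 0.326), and Klf13, with the highest CPM of the list, had 0.18 (SE 0.13; edgeR adjusted p = 0.684). With 1 library left out Klf13 ran from 0.071 to 0.24. Mef2a and Mef2d, the 2 other MEF2 genes tested, differed by 0.03 and 0.05. The 10 genes of the TAL1 complex had a median of -0.07 and none at an unadjusted p under 0.05. Among them Tcf3, its E-protein partner, had 0.05 (SE 0.17; edgeR adjusted p = 0.946), Lmo2, its bridging partner, -0.17 (SE 0.11; edgeR adjusted p = 0.668), and Gata2, the GATA factor of stem cells and endothelium, -0.21 (SE 0.18; edgeR adjusted p = 0.744).

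Among other vessel factors, Epas1 alone came near a call. Of 11 tested, 8 had a fold change below 0, against 50.2% of all genes, and 2 were lower in males at an unadjusted p under 0.05, against 4.76%, with a median of -0.39. Epas1, which encodes the hypoxia-inducible factor HIF-2 alpha and is high in endothelium and macrophages, was at 98.1, 67.5 and 101.1 CPM in females and 40.7, 39.3 and 54.9 CPM in males. Every male library was below every female one, with a log2 fold change of -0.98 (SE 0.18; edgeR adjusted p = 0.0859). The call depended on the setting, with an adjusted p of 1.43e-04 from DESeq2's Wald test, 0.0207 from edgeR without a filter and 0.0350 from edgeR without male replicate 3. In the other direction, the edgeR adjusted p rose to 0.352 without female replicate 3 and to 0.445 without male replicate 2. Foxc1, a forkhead factor of vessels and of marrow stromal cells, had -0.61 (SE 0.24; edgeR adjusted p = 0.430) with overlapping groups. Foxo1 (0.05) and Hhex (0.08), both also used by B cells, were level. The endothelial and macrophage sums were lower in males alongside Epas1, and their part in it was not tested.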

How the data were processed

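The authors deposited whole-number counts of reads per gene for 6 libraries, without normalization and without pooling of replicates. The study's methods name STAR, GRCm39 and featureCounts, whereas the submitters' processing notes name TopHat2 2.0.11, featureCounts and mm9 (NCBIM37). The annotation release and the strand setting are not given in the sources used here, so coordinates are those of GENCODE M39 on GRCm39, which matched 31073 of 37991 identifiers. 0 columns were left without a sample. The deposited counts were fitted in R 4.3.3 with edgeR 4.0.16 (filterByExpr by sex, TMM, robust quasi-likelihood F-test, males over females, Benjamini-Hochberg over 19480 genes, threshold 0.05). DESeq2 1.42.0 was an alternative, and the others were scaling, filters, dispersion, a replicate block and leaving out each library. The fits were tested on simulated data. Counting intervals (95%) are exact Poisson intervals and, like the floor of 3 counts, cover counting error only. The members and lists were chosen with earlier results of these data known. Named genes were the 10 members and, from each wider list, genes that passed the test, the 2 with the highest mean CPM and the 2 with the smallest unadjusted p. Emcn, Kdr, Icam2 and the genes below the filter were named outside that rule. The reference without 5 shared markers (Pecam1, Stab2, Icam2, Cd34 and Vwf) and the SD of ratios within the sexes were chosen after seeing the data. Promoters came from RefSeq (GRCm38.p6), and primers from the study's primer list.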

Additional observations from a re-analysis of the deposited data

How the results depend on the processing

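The 10 factors gave 0 calls under every scaling, filter and left-out library tried, and 1 call, Sox18, with DESeq2's Wald test and with the replicate block. The fold changes of Sox7, Sox17, Sox18, Erg, Klf4 and Mef2c kept their sign under all alternatives. With 1 library left out they ran from -0.19 to -0.026 for Mef2c and from 0.061 to 0.17 for Klf4. The adjusted p of Sox18 ranged from 0.00796 with the replicate block to 0.993 without male replicate 2, with 0.0510 without male replicate 3. Over all genes, the 8 calls became 14 with total counts alone, 98 without a filter, 354 with DESeq2's Wald test and 428 with the replicate block, and 5 (without female replicate 2) to 96 (without male replicate 3) with 1 library left out. Among other vessel factors there was 1 call, Epas1, in place of 0, without a filter, with DESeq2, with the replicate block and without male replicate 3 (0 to 1 with 1 library left out). Among the targets there were 6 calls with DESeq2 and 8 with the replicate block, and among other KLF genes 1, Klf11, with the block. The replicate numbers were not taken as pairs: same-numbered libraries of the sexes correlated in their deviations from the group means by 0.248, 0.0613 and 0.361, and male replicate 2 correlated best with female replicate 1 (0.162), which is a hint from the data and not from the design. With 1 library left out the log2 fold change ran from -0.12 to 0.040 for Fli1, from -0.22 to 0.00282 for Ets1, from -0.10 to 0.19 for Klf2 and from -0.44 to 0.16 for Tal1. Among the named relatives, Spib (-0.12 to 0.20), Sox4 (-0.19 to 0.14), Sox6 (-0.52 to 0.31), Tcf3 (-0.14 to 0.21), Foxo1 (-0.091 to 0.13), Mef2a (-0.012 to 0.057) and Mef2d (-0.12 to 0.18) also changed sign in this way. Relative to the endothelial markers, Sox7 differed by 0.19 against their geometric mean, 0.45 against Cdh5 alone and 0.32 without the shared markers, and by -0.21 to 0.22 with 1 library left out. Sox18 differed by -0.013 against the geometric mean, 0.25 against Cdh5 and 0.12 without the shared markers, and by -0.40 (without male replicate 3) to -0.082 (without male replicate 1) with 1 library left out. Tal1 differed by 0.34 without male replicate 1, and Sox17 by -0.068 to 0.38 with 1 library left out. With the longest coding transcript 2 factors changed place in the order per length. The cause of these changes was not tested. Depth limits Sox17 and Sox7, with under 80 counts in each library.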

Other observations

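Of the 99 relatives and targets in the count table, 18 did not pass the filter on low counts, and 10 of these were at 3 counts or fewer in every library. Etv2, an ETS gene of the first embryonic endothelial progenitors, had 3 counts in male replicate 2 and 0 in the other 5 libraries, and Foxf1 had 0 in all 6. Prox1, the factor of lymphatic endothelium, had 4 to 20 counts and Edn1, the endothelin gene, 0 to 15. None of the 18 was tested between the sexes.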
